A study of Mus musculus with 20 samples.

Results

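The presynaptic vesicle release machinery is described here as 43 genes for the proteins that fill the synaptic vesicle membrane, dock and fuse the vesicle, sense calcium, build the active zone and retrieve membrane after fusion. The genes are a list of symbols drawn up with earlier results of these data known, though no measured value enters the rule, and all 43 were measured in each of the 4 deposited tables, against 13688 genes present in all 4. Gene expression was measured by sequencing of total RNA from mouse primary cortical neurons, isolated on embryonic day 15 and cultured for 7 days. The cultures came from the strain C57BL/6N-Cdr1asem1Nikr and were labelled WT or ciRS-7 KO. The KO cultures lack ciRS-7, a circular RNA that the tables list under Cdr1as. The groups were WT normoxia and KO normoxia, kept for 12 h with glucose at 25 mM, and WT OGD and KO OGD, kept for 12 h at 1% oxygen in medium to which no glucose had been added. Oxygen and glucose deprivation (OGD) is a culture model of ischemia. Each group had 5 libraries, described by the submitters as biological replicates; the embryos or litters behind them are not named, so part of the spread between these libraries may be technical.

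A synaptic vesicle carries membrane proteins such as synaptophysin and the SV2 family and is held near the release site by synapsins. Rab3 and the RIM, Munc13, Bassoon and Piccolo proteins of the active zone dock and prime it. SNARE proteins on the vesicle and the plasma membrane then form the complex that drives fusion when synaptotagmin binds calcium, and dynamin, amphiphysin, synaptojanin and endophilin retrieve the membrane. Transcripts of these genes are abundant in cortical neurons.

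The values are log2 CPM, log2 counts scaled for library size. In each gene and group the lowest and the highest value of the tables had been drawn inwards, and this was undone before any test. The whole-number counts behind the values summed to between 7071506 and 16658617 per library. Cdr1as, the targeted gene, had 545 to 1912 reads in the WT libraries and 2 to 16 in the KO libraries. Among markers fixed for the cell types a cortical culture can hold, 10 of 10 neuron genes and 9 of 10 astrocyte genes were measured, as were 7 of 8 oligodendrocyte lineage genes and 0 of 8 microglia genes. The mitochondrial ribosomal RNA mt-Rnr2 took 10.1% to 16.5% of the counts in normoxia and 13.8% to 24.7% in WT OGD and 18% to 32% in KO OGD, KO OGD replicate 5 being highest.

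The libraries also carried a mark of their batch labels (1, 2, 3.1, 3.2 and 3.3). Deviations of libraries from their group means cancelled in part within each batch label, most in 3.1 and 3.3 and least in 3.2. The squared sum of the deviations of a batch, divided by the sum of their squares, was 0.05 to 0.55 over 10987 genes. Independent libraries give 1, or somewhat less in batches 3.1 and 3.3, where a group has more than 1 library. Replicate 3 of each group, the only culture of its genotype in batch 2 or 3.2, was the lowest or highest of its group for 3.0% to 9.1% of genes, and replicate 1 for 13.3% to 16.3%. Replicates 2, 4 and 5 were so for 55.8% to 62.8%, where an even share is 40.0%. No label records a step that would level batches, and its part in the spread was not tested. Values levelled in this way would leave fewer independent differences than 5 libraries per group, and the p-values, standard errors and intervals below, from fits without the batch label, would then be too small. Counts of called genes are therefore given also with the batch label in the fit, except for the interaction of OGD and genotype, which was not fitted with it. The label entered there by its whole number, so 3.1, 3.2 and 3.3 were not told apart. In WT this set only replicate 1 apart from the rest, and in KO replicates 1 and 3. That fit therefore adjusts only in part for the labels described.

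Under OGD most of the release machinery fell in both genotypes. A gene was called when its limma adjusted p, corrected over all genes of the table, was under 0.05. In WT, 30 of 43 members fell and 2 rose, the vesicle protein gene Sv2c and the active zone gene Rims2. Over all genes 22.8% were called lower and 21.6% higher. The median log2 fold change of the 43 was -0.58, against -0.03 over all genes. All 5 WT OGD libraries lay below all 5 WT normoxia libraries for 12 members, and 13.1% of all genes did so. In KO, 35 members fell and 1, Sv2c, rose, where 19.9% of all genes were called lower and 21.0% higher. The median of the members in KO was -0.67, against 0.00 over all genes. The groups lay apart in this way for 21 members in KO, against 12.4% of all genes. With the batch label in the fit, 28 members fell and 2 rose in WT, where 21.2% of all genes were called lower, and 28 fell and 1 rose in KO, where 16.1% were. With replicates 1 and 3 left out of both groups, 12 fell and 0 rose in WT (8.93% of all genes lower) and 13 fell and 0 rose in KO (8.01% lower), while the medians were -0.62 and -0.68.

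**Figure D1:**
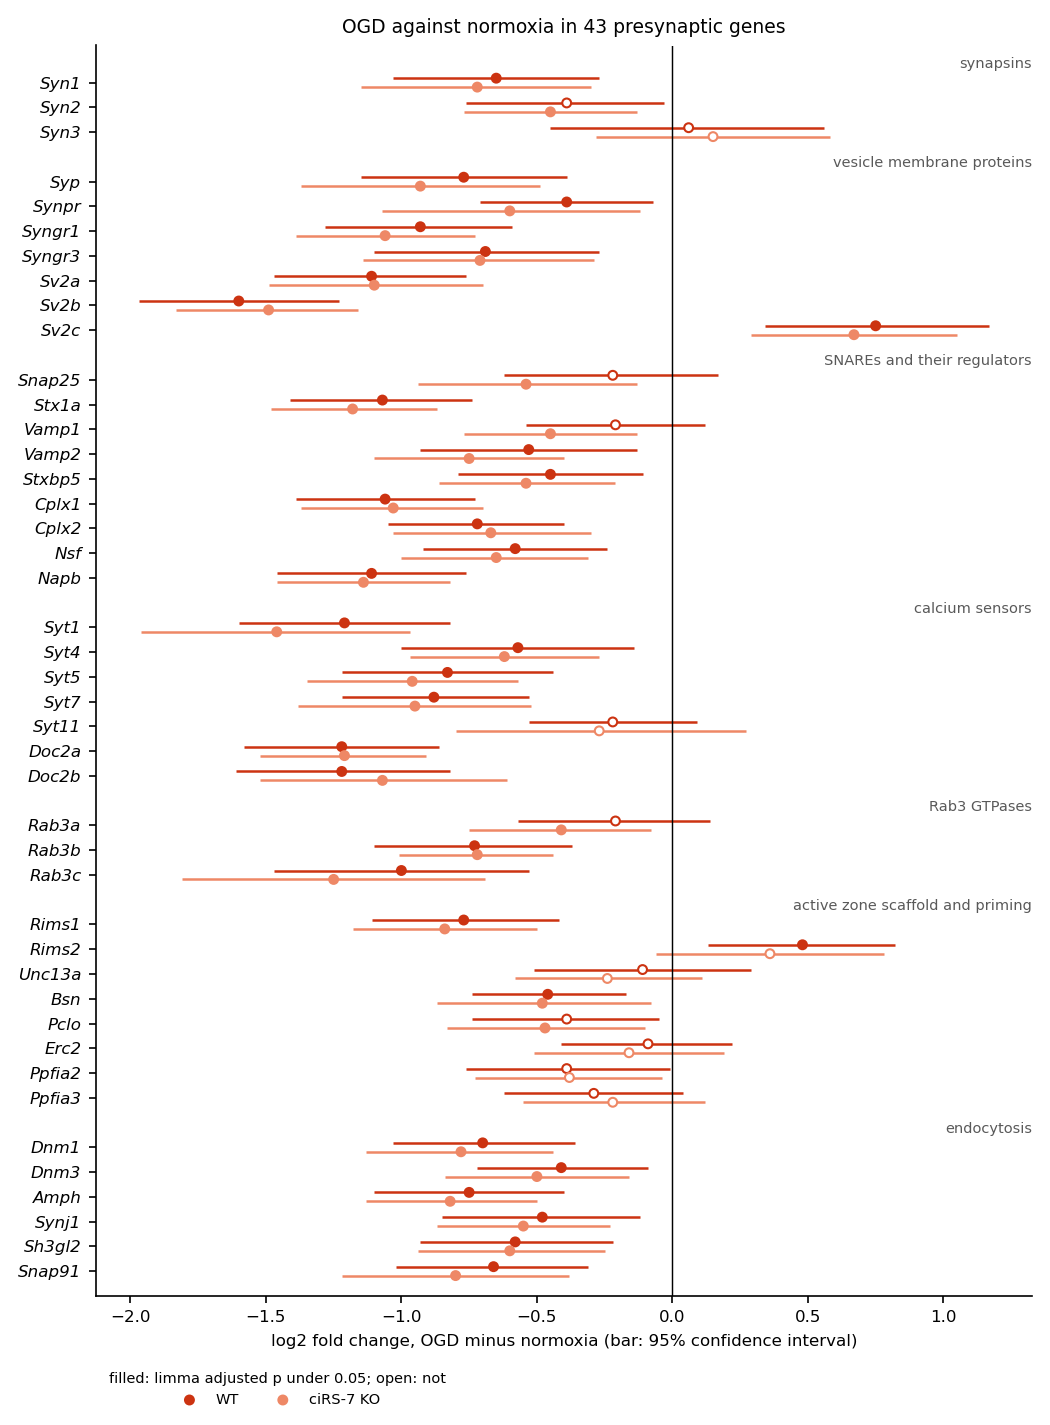
Log2 fold change of each of the 43 genes under OGD (horizontal axis, OGD minus normoxia), by role, in WT (dark red) and KO (light red); points are estimates, bars 95% confidence intervals, and filled points passed a limma adjusted p of 0.05. All but Syn3, Sv2c and Rims2 lie to the left of 0 in both genotypes, from -1.6 for Sv2b to 0.75 for Sv2c in WT.

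Other measured features moved with the same contrast. The summed level of the 10 neuron markers was 6270 to 7610 CPM in WT normoxia and 4280 to 6570 in WT OGD, and 6870 to 7140 and 4760 to 5730 in KO. The 9 astrocyte markers summed to 1450 to 1900 CPM in WT normoxia and 2270 to 2920 in WT OGD, and to 1430 to 1910 and 1980 to 2710 in KO. Of the neuron markers 4 were called lower in each genotype; of the astrocyte markers 5 were called higher and 1 lower in WT and 4 higher in KO. Of the 7 oligodendrocyte lineage markers 1 was called higher and 2 lower in WT and 3 higher in KO, with summed levels of 277 to 344 CPM in WT normoxia, 323 to 474 in WT OGD, 207 to 392 in KO normoxia and 275 to 397 in KO OGD. All 6 proliferation markers rose, from a summed 398 to 511 CPM to 741 to 1360 in WT and from 370 to 623 to 913 to 1250 in KO. The part of these shifts in the falls of the members was not tested, and in bulk RNA fewer neurons and less RNA per neuron cannot be told apart.

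The SV2 genes, which encode transporter-like glycoproteins of the vesicle membrane, gave both the largest fall and the largest rise among the 43. Their loci lie on different chromosomes, Sv2a at chr3:96181151-96195521 (+ strand), Sv2b at chr7:75114894-75309262 (- strand) and Sv2c at chr13:95954594-96132577 (- strand) of GRCm38. The RefSeq promoter windows (GRCm38.p6) below run 250 bases before to 50 bases after the annotated start, 300 bases each, 5′ to 3′ on the gene's strand, and are shown because these paralogs moved in opposite directions. The Syn1 window is added for contrast. Capitals mark matches, on either strand, to the CRE (TGACGTCA), the left part of the REST element (TTCAGCAC) and the SP1 box (GGGCGG). The right part of the REST element (GGACAG), the core ACGTG of the hypoxia response element and the EGR1 motif (GCGTGGGCG) were also searched, and matches to the first of these are left in lower case.
Syn1: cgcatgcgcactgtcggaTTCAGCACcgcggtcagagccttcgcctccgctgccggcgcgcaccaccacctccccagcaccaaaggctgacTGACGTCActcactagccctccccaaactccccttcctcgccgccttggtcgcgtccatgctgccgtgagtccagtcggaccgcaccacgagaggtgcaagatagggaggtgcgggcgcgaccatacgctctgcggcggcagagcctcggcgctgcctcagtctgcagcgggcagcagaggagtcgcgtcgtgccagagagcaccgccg
Sv2a: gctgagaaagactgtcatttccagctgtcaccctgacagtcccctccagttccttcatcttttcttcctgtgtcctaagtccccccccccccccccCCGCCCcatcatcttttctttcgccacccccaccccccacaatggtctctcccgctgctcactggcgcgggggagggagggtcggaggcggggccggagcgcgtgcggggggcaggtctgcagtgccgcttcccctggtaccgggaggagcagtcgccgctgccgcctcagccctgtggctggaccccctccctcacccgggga
Sv2b: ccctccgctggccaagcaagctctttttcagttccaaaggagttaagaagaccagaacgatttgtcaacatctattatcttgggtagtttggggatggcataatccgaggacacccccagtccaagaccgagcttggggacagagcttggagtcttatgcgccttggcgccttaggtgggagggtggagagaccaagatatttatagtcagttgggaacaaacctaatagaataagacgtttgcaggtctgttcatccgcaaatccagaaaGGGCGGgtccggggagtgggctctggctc
Sv2c: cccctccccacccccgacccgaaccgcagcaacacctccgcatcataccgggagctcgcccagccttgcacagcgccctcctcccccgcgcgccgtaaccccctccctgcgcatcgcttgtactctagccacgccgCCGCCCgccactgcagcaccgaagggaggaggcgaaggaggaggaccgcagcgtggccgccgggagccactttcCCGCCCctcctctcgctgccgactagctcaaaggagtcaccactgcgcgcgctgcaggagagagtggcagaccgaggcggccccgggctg
The windows lie at chrX:20920869-20921168 (Syn1, - strand), chr3:96180977-96181276 (Sv2a, + strand), chr7:75309213-75309512 (Sv2b, - strand, the first of 4 annotated starts) and chr13:96132528-96132827 (Sv2c, - strand). Their GC contents were 68.3%, 68.0%, 51.3% and 71.7%, and the median over all promoters of the table was 52.7%. The windows of Sv2a and Sv2b, which fell, and of Sv2c, which rose, all held an SP1 box; of the other 3 Sv2b windows none held it and 2 held the hypoxia core. An SP1 box was in 63.4% of the 41 member windows and 35.7% of all windows. It holds only G and C, and the median GC content was 61.3% over member windows against 52.7% over all. The part of GC content in this difference was not tested. The CRE was found in Syn1 and Sh3gl2, 4.88% of member windows against 1.79% of all. The left part of the REST element was found in Syn1, Unc13a and Ppfia3, 7.32% against 1.17%. The right part was in 14.6% of member windows, Sv2b included, and 22.2% of all, the hypoxia core in 17.1% and 19.6%, and the EGR1 motif in 4.88% and 0.61%. These are matches of letters, not sites.

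Synapsins are phosphoproteins that tether vesicles to each other and to actin. Syn1, on the X chromosome, was at 6.79, 6.96, 6.74, 7.16 and 6.3 log2 CPM in WT normoxia replicates 1 to 5 and at 6.28, 5.76, 6.07, 6.71 and 5.85 in WT OGD. Its KO libraries were at 6.68, 6.54, 6.88, 7.29 and 6.5 in normoxia and at 6.06, 6.53, 6.12, 6.25 and 5.3 under OGD. The groups overlapped in both genotypes, yet every culture was lower under OGD than in normoxia. Syn1 fell by 0.65, standard error 0.18, in WT (limma adjusted p 0.00637) and by 0.72, standard error 0.2, in KO (limma adjusted p 0.00803). Syn2 was called in KO, where it fell by 0.45 (limma adjusted p 0.0238, and not called with the batch label in the fit), and had a log2 fold change of -0.39 in WT (limma adjusted p 0.0733).

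Syn3, the third synapsin, was the member nearest to 0. It was at 5.22, 5.07, 5.06, 5.65 and 4.7 in WT normoxia and at 5.21, 4.76, 5.39, 4.4 and 6.22 in WT OGD, so that the OGD libraries reached both above and below all normoxia libraries. Its log2 fold change was 0.06, with a 95% interval from -0.45 to 0.56, in WT and 0.15, from -0.28 to 0.58, in KO. An exon of Syn3 overlaps Timp3 on the opposite strand, and the strand setting of the counting is not given. Timp3 rose by 1.07 in WT and 0.88 in KO (limma adjusted p 1.64e-05 and 0.000114), and reads of the pair cannot be told apart here. Such an opposite-strand overlap exists for 18 of the 43, among them Syn1 with Araf, Sv2b with 1500012K07Rik, Rab3a with Mpv17l2 and Unc13a with Colgalt1.

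All 7 vesicle membrane genes were called in both genotypes, 6 lower and Sv2c higher. Sv2b, a paralog enriched in glutamatergic terminals, was at 6.1, 5.79, 6.06, 6.52 and 5.87 log2 CPM in WT normoxia and at 4.37, 3.97, 4.5, 4.49 and 5.01 in WT OGD. The KO values were 6.29, 6.24, 6.21, 5.64 and 6.35 in normoxia and at 4.61, 4.98, 4.57, 4.4 and 4.72 under OGD. The OGD libraries lay below the normoxia libraries with a gap in both genotypes. The fall was 1.6, standard error 0.18, in WT, or 3.04-fold (limma adjusted p 5.42e-07), and 1.49, standard error 0.16, in KO, or 2.81-fold (limma adjusted p 1.41e-06).

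Sv2a, the paralog found at most synapses, also separated the conditions. It was at 7.3, 7.5, 7.42, 7.87 and 7.14 in WT normoxia and at 6.3, 5.86, 6.3, 6.77 and 6.43 in WT OGD. In KO it ranged from 7.17 to 7.41 in normoxia and from 5.44 to 6.75 under OGD. Sv2a fell by 1.11, standard error 0.17, in WT (limma adjusted p 2.54e-05) and by 1.1, standard error 0.19, in KO (limma adjusted p 0.000178).

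Sv2c, the least abundant of the family in normoxia, rose. It was at 4.61, 5.03, 4.85, 4.39 and 4.96 in WT normoxia and at 5.64, 5.85, 5.64, 5.84 and 4.62 in WT OGD, where replicate 5 alone lay within the normoxia range. In KO it was at 4.82, 4.84, 4.32, 5.48 and 4.6 in normoxia and at 5.59, 5.22, 5.69, 5.55 and 5.35 under OGD, higher in 5 of 5 cultures. The rise was 0.75, standard error 0.2, in WT (limma adjusted p 0.00438) and 0.67, standard error 0.18, in KO (limma adjusted p 0.00647). With replicates 1 and 3 left out it was 0.64 and 0.4 and was not called (limma adjusted p 0.137 and 0.409). Scaled to library totals, Sv2c in KO was at 0.38 (limma adjusted p 0.111). The level of Sv2c minus that of Sv2b, on the log2 CPM scale and not per length, was -1.3 ± 0.55 (SD, n = 5) in WT normoxia and 1.05 ± 0.85 (SD, n = 5) in WT OGD, and -1.33 ± 0.69 and 0.83 ± 0.39 (SD, n = 5 each) in KO.

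**Figure D2:**
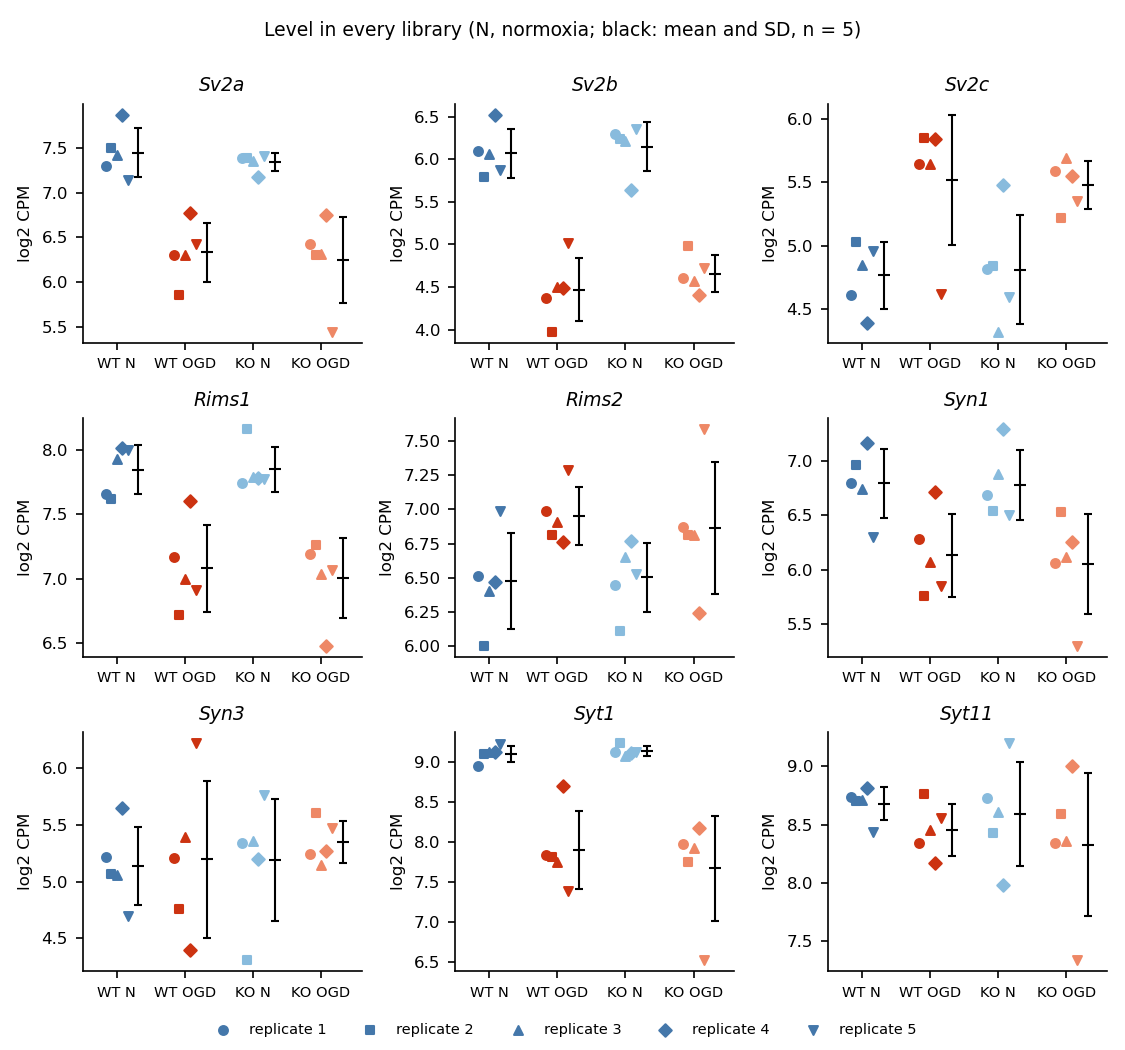
Level of 9 genes in every library (vertical axes, log2 CPM, each panel with its own range) in WT and KO under normoxia (N) and OGD; symbols are replicates and black bars the mean and SD of 5. Sv2a, Sv2b and Syt1 separate the conditions in both genotypes, Sv2c and Rims2 shift upward with overlap, and Syn3 and Syt11 overlap throughout.

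The other vesicle proteins are synaptophysin, synaptoporin and the synaptogyrins, tetraspan membrane proteins. Syp, for synaptophysin, was at 7.64, 7.51, 7.76, 7.73 and 7.87 in WT normoxia and at 6.88, 6.81, 6.82, 7.71 and 6.43 in WT OGD, where replicate 4 was level with normoxia. Syp fell by 0.77 in WT and 0.93 in KO (limma adjusted p 0.00179 and 0.00185). Syngr1 fell by 0.93 and 1.06, with no overlap of groups in either genotype, and Syngr3 by 0.69 and 0.71. Synpr was the smallest of the 7 in WT: it was at 3.42, 3.63, 3.59, 3.46 and 3.73 in normoxia and at 2.93, 3.38, 3.21, 2.89 and 3.47 under OGD, lower in 5 of 5 cultures. Its fall of 0.39 in WT (limma adjusted p 0.0433) was not called with the batch label in the fit, and its fall of 0.6 in KO (limma adjusted p 0.0426) was not called with the replicate number as a block.

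Of the 9 SNARE genes and their regulators, 7 fell in WT and 9 in KO. Napb, for the beta-SNAP that couples NSF to spent SNARE complexes, had the largest fall of these 9 in WT. It was at 7.71, 7.75, 7.9, 7.9 and 7.97 log2 CPM in WT normoxia and at 6.65, 6.48, 6.63, 7.41 and 6.5 in WT OGD. In KO it ranged from 7.61 to 8.13 in normoxia and from 6.41 to 6.91 under OGD. The conditions did not overlap, though WT OGD replicate 4 stood above the other 4. The fall was 1.11, standard error 0.17, in WT (limma adjusted p 2.09e-05) and 1.14, standard error 0.15, in KO (limma adjusted p 1.48e-05).

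Estimates for genes of the fusion complex itself differed in size, and the differences between these genes were not tested. Stx1a, for syntaxin of the plasma membrane, fell by 1.07 in WT and 1.18 in KO (limma adjusted p 1.98e-05 and 6.65e-06), with no overlap of groups. Vamp2, for synaptobrevin of the vesicle, fell by 0.53 and 0.75 (limma adjusted p 0.0293 and 0.00158). Snap25, the other plasma membrane SNARE, was at 8.25, 8.13, 8.4, 8.39 and 8.61 in WT normoxia and at 8.06, 8.06, 8, 8.92 and 7.61 in WT OGD. Replicate 4 was here above every normoxia library, and the log2 fold change was -0.22 (95% interval -0.62 to 0.17, limma adjusted p 0.355). In KO Snap25 fell by 0.54 (limma adjusted p 0.0339), a call lost with the batch label in the fit, with the replicate number as a block, and without OGD replicate 4 or 5 or normoxia replicate 1, 3 or 4; without OGD replicate 5 the value was -0.34. Vamp1, the lowly expressed paralog, was at 2.37, 2.19, 2.48, 2.62 and 2.63 in WT normoxia and at 2.29, 2.13, 2.22, 2.5 and 2.09 in WT OGD, lower in 5 of 5 cultures by a mean of 0.21 that was not called (limma adjusted p 0.289). Vamp1 fell by 0.45 in KO (limma adjusted p 0.0242), also lost with the batch label and with the block.

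The regulators fell with them. Cplx1 and Cplx2, for complexins that clamp the assembled SNARE complex, fell by 1.06 and 0.72 in WT and by 1.03 and 0.67 in KO, Cplx1 without overlap of groups. The level of Cplx1 minus that of Cplx2 was -0.48 ± 0.15 (SD, n = 5) in WT normoxia and -0.82 ± 0.09 (SD, n = 5) in WT OGD. In KO it was -0.55 ± 0.36 and -0.92 ± 0.46 (SD, n = 5 each), with overlapping ranges. Nsf, for the ATPase that takes SNARE complexes apart, fell by 0.58 and 0.65. Stxbp5, for tomosyn, which binds syntaxin in place of synaptobrevin, fell by 0.45 and 0.54; its call in WT (limma adjusted p 0.0294) was lost with the replicate block.

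Among the 7 calcium sensors, 6 fell in both genotypes. Syt1, for the synaptotagmin that triggers fast synchronous release, was at 8.95, 9.1, 9.12, 9.12 and 9.23 log2 CPM in WT normoxia and at 7.84, 7.81, 7.75, 8.7 and 7.38 in WT OGD. Its KO libraries were at 9.12, 9.24, 9.07, 9.11 and 9.13 in normoxia and at 7.97, 7.75, 7.92, 8.18 and 6.52 under OGD. Normoxia libraries lay within a narrow band, and OGD libraries were spread below it, with WT replicate 4 highest and KO replicate 5 lowest. Syt1 fell by 1.21, standard error 0.19, in WT, 2.31-fold, and by 1.46, standard error 0.23, in KO, 2.76-fold (limma adjusted p 2.72e-05 and 8.64e-05).

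Doc2a and Doc2b encode soluble high-affinity calcium sensors linked to spontaneous and asynchronous release. Doc2a, a low-abundance gene, was at 2.44, 2.41, 2.35, 2.35 and 2.33 in WT normoxia and at 1.07, 0.71, 1.19, 1.29 and 1.51 in WT OGD. The KO values were 2.57, 2.42, 2.59, 2.59 and 2.56 in normoxia and at 1.4, 1.33, 1.26, 1.28 and 1.39 under OGD. No normoxia library reached the OGD range in either genotype. Doc2a fell by 1.22, standard error 0.17, in WT and by 1.21, standard error 0.14, in KO (limma adjusted p 9.9e-06 and 4.26e-06), and Doc2b by 1.22 and 1.07. Doc2a shares exon sequence positions with Ino80e on the opposite strand, which had log2 fold changes of 0.06 in WT and -0.01 in KO.

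Syt7, a slow sensor, had falls of 0.88 in WT and 0.95 in KO, and Syt5 of 0.83 and 0.96. Syt4, for an atypical synaptotagmin, fell by 0.57 and 0.62; the WT call (limma adjusted p 0.0292) was lost with the replicate block. Syt11, a non-calcium-binding synaptotagmin, was at 8.74, 8.7, 8.71, 8.81 and 8.44 in WT normoxia and at 8.34, 8.76, 8.45, 8.17 and 8.56 in WT OGD. These ranges overlapped, and so did those in KO, from 7.98 to 9.2 and from 7.34 to 9. The log2 fold change of Syt11 was -0.22 (95% interval -0.53 to 0.09) in WT and -0.27 (-0.8 to 0.27) in KO. Of the transcripts of Syt11, 5.86% of 50-base words occur in another gene, the highest share among the members.

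Rab3 GTPases sit on the vesicle and bind RIM at the active zone. Rab3c was at 8.47, 8.46, 8.79, 8.65 and 9.06 log2 CPM in WT normoxia and at 7.73, 7.74, 7.58, 8.61 and 6.79 in WT OGD. In KO it was at 8.54, 8.29, 8.48, 8.97 and 8.9 in normoxia and at 7.73, 7.88, 7.64, 7.63 and 6.07 under OGD. The groups overlapped in WT through OGD replicate 4 and did not overlap in KO. Rab3c fell by 1, standard error 0.23, in WT and by 1.25, standard error 0.27, in KO (limma adjusted p 0.00126 and 0.00108), and Rab3b by 0.73 and 0.72 (limma adjusted p 0.00195 and 0.000405).

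Rab3a, the most abundant of the 3 per transcript length, was the smallest change of its group. It was at 6.95, 6.59, 6.97, 7.39 and 6.92 in WT normoxia and at 6.67, 6.94, 6.68, 7.16 and 6.31 in WT OGD, with overlapping ranges. The log2 fold change was -0.21 (95% interval -0.57 to 0.14, limma adjusted p 0.334) in WT. In KO Rab3a fell by 0.41 (limma adjusted p 0.0465), a call lost with the batch label in the fit. The level of Rab3c minus that of Rab3a was 1.72 ± 0.34 (SD, n = 5) in WT normoxia and 0.93 ± 0.36 (SD, n = 5) in WT OGD.

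Among the roles, the active zone genes, for the scaffold and priming proteins at the release site, had the median log2 fold change nearest to 0. Of 8, 2 fell and 1 rose in WT, and 3 fell in KO, with medians of -0.34 and -0.31. The synapsin medians were -0.39 and -0.45, and differences between roles were not tested. Rims1 (chr1:22286251-22805994) and Rims2 (chr15:39198261-39684372), the paralogs for RIM proteins that recruit calcium channels and Munc13, had opposite signs. Rims1 was at 7.66, 7.62, 7.93, 8.01 and 8 log2 CPM in WT normoxia and at 7.17, 6.72, 7, 7.6 and 6.91 in WT OGD. The lowest normoxia library stood just above the highest OGD library. Rims1 fell by 0.77, standard error 0.16, in WT and by 0.84, standard error 0.16, in KO (limma adjusted p 0.000754 and 0.000519), without overlap in either genotype.

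Rims2 was at 6.51, 6, 6.4, 6.47 and 6.99 in WT normoxia and at 6.99, 6.81, 6.91, 6.76 and 7.29 in WT OGD, higher in 5 of 5 cultures though the ranges overlapped. Its KO libraries were at 6.45, 6.11, 6.65, 6.77 and 6.53 in normoxia and at 6.87, 6.81, 6.81, 6.24 and 7.59 under OGD, with replicate 4 within the normoxia range and the other 4 above it. The rise was 0.48, standard error 0.17, in WT (limma adjusted p 0.0259), and the log2 fold change in KO was 0.36 (95% interval -0.06 to 0.78, limma adjusted p 0.154). The WT call was lost when counts were scaled to library totals (0.2, limma adjusted p 0.345), and without OGD replicate 1, OGD replicate 5, normoxia replicate 2 or normoxia replicate 3. The level of Rims2 minus that of Rims1 was -1.37 ± 0.27 (SD, n = 5) in WT normoxia and -0.13 ± 0.45 (SD, n = 5) in WT OGD.

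Bsn, for the giant scaffold Bassoon, fell by 0.46 in WT without overlap of groups (limma adjusted p 0.00965) and by 0.48 in KO (limma adjusted p 0.0499, lost with the batch label and with the replicate block). Pclo, for Piccolo, had a log2 fold change of -0.39 in WT (limma adjusted p 0.0596, called with the replicate block) and fell by 0.47 in KO (limma adjusted p 0.0401, lost with the batch label and with the block). Erc2, for the scaffold protein CAST, was at 7.61, 7.21, 7.58, 7.99 and 7.53 in WT normoxia and at 7.5, 7.44, 7.48, 7.35 and 7.68 in WT OGD, so that the OGD libraries lay inside the normoxia range. Its log2 fold change was -0.09 (95% interval -0.41 to 0.22) in WT and -0.16 (-0.51 to 0.19) in KO. Unc13a, for the priming factor Munc13, and the liprin genes Ppfia2 and Ppfia3 had log2 fold changes of -0.11, -0.39 and -0.29 in WT and were not called in either genotype (limma adjusted p from 0.0692 to 0.679).

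All 6 endocytosis genes fell in both genotypes. Amph, for amphiphysin, which recruits dynamin to the vesicle neck, was at 7.69, 7.76, 7.86, 7.7 and 7.98 log2 CPM in WT normoxia and at 7.09, 6.78, 6.97, 7.7 and 6.71 in WT OGD. The KO values were 7.78, 8.25, 7.77, 7.56 and 7.56 in normoxia and at 7.04, 6.92, 6.98, 6.91 and 6.99 under OGD. WT OGD replicate 4 was level with normoxia, while the KO groups lay apart. Amph fell by 0.75, standard error 0.17, in WT and by 0.82, standard error 0.15, in KO (limma adjusted p 0.00119 and 0.000353).

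The dynamin genes encode the GTPases that cut the vesicle free. Dnm1 fell by 0.7 in WT and 0.78 in KO (limma adjusted p 0.00167 and 0.000987). Dnm3 was at 7.64, 7.24, 7.6, 7.95 and 7.43 in WT normoxia and at 7.09, 7.33, 7.2, 7.3 and 6.89 in WT OGD, with overlap; it fell by 0.41 and 0.5 (limma adjusted p 0.0366 and 0.0208), and both calls were lost with the batch label in the fit. Snap91, for the clathrin adaptor AP180, fell by 0.66 and 0.8, Sh3gl2, for endophilin, by 0.58 and 0.6, and Synj1, for the lipid phosphatase synaptojanin that sheds the clathrin coat, by 0.48 and 0.55.

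Some calls were lost when 1 library was left out, each with more than 1 choice of that library. With all libraries their limma adjusted p lay between 0.0208 (Dnm3 in KO) and 0.0499 (Bsn in KO). The calls over all genes moved in such fits too. In WT 2698 to 3405 of 14235 genes were called lower, against 3244 with all libraries. In KO the numbers were 2373 to 2880 of 14375, against 2863. In WT the call of Vamp2 was lost without OGD replicate 1, 3 or 5 or normoxia replicate 3, 4 or 5, and that of Synj1 (limma adjusted p 0.0308) without OGD replicate 1, 2 or 3 or normoxia replicate 2, 3 or 4. Stxbp5 lost its WT call without replicate 2 or 3 of either group or normoxia replicate 4, and Syt4 without OGD replicate 5 or normoxia replicate 3, 4 or 5. Synpr lost it without OGD replicate 1, 3 or 4 or normoxia replicate 1, 2, 3 or 5, and Dnm3 without OGD replicate 1, 3 or 5 or normoxia replicate 1, 3 or 4. In KO the call of Syn2 was lost without OGD replicate 1, 2 or 3 or normoxia replicate 1 or 3, that of Synpr without OGD replicate 2, 3 or 5 or normoxia replicate 1, 3 or 5, and that of Vamp1 without OGD replicate 5 or normoxia replicate 1. Rab3a lost its KO call without OGD replicate 1, 3, 4 or 5 or normoxia replicate 1 to 4, and Dnm3 without replicate 1 or 3 of either group or normoxia replicate 4. Bsn lost its KO call without OGD replicate 1, 3 or 4 or normoxia replicate 1 to 4, and Pclo without OGD replicate 1, 3 or 4 or any normoxia replicate.

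**Figure D3:**
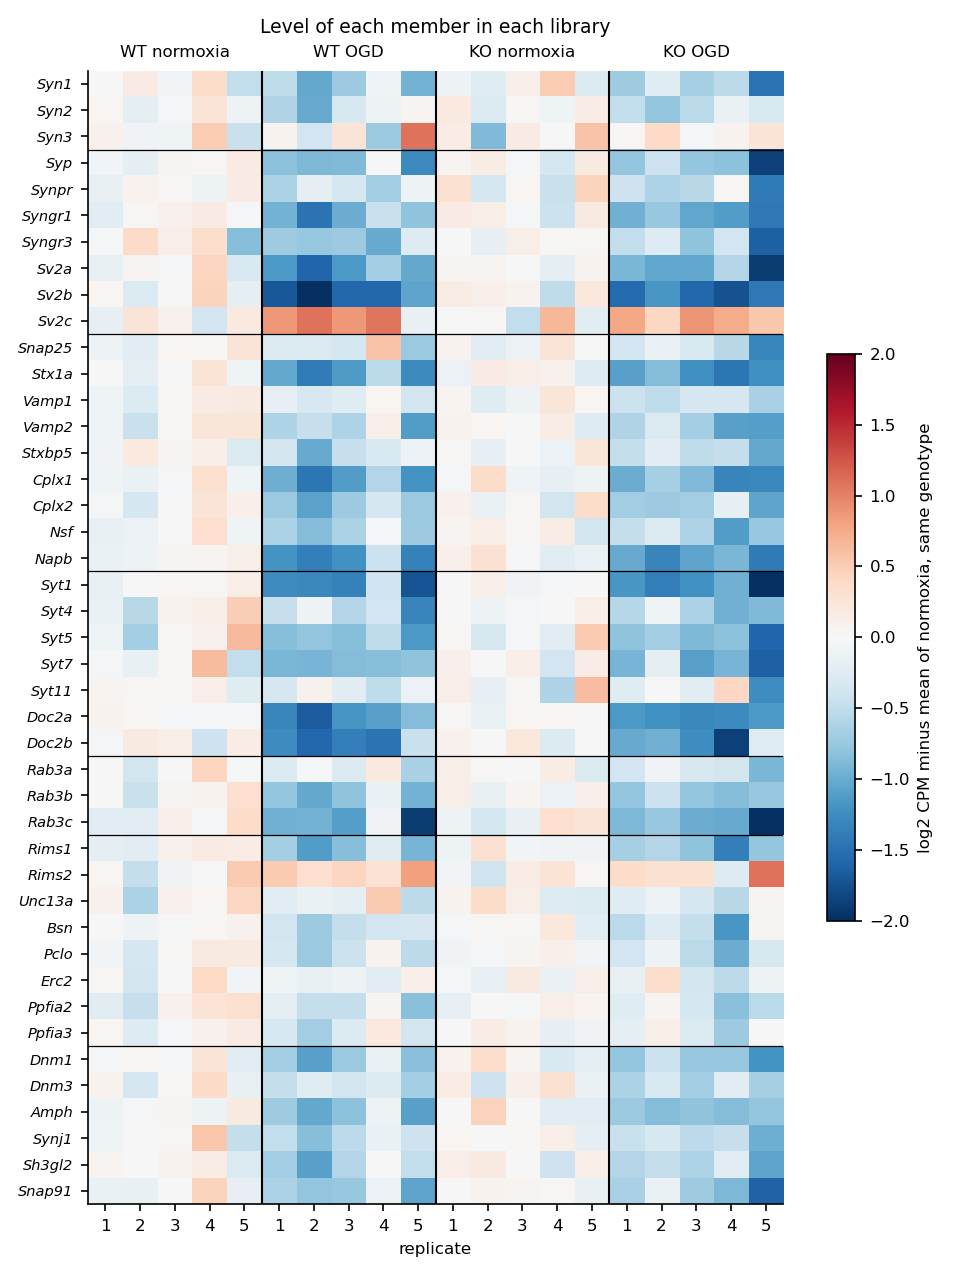
Level of each of the 43 genes in each of the 20 libraries, as log2 CPM minus the normoxia mean of the same genotype (blue, lower; red, higher; colour limits -2 and 2), with columns by group and replicate and rows by role. Blue fills most of both OGD blocks; WT OGD replicate 4 is paler and KO OGD replicate 5 darker than the other libraries of their groups.

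Libraries of a group differed along the same axis. The median deviation of the 43 members from the normoxia mean was -0.63, -0.87, -0.63, -0.24 and -0.75 in WT OGD replicates 1 to 5 and -0.61, -0.32, -0.67, -0.82 and -1.06 in KO OGD. WT OGD replicate 4 was the highest of its group for 27 of 43 members, and KO OGD replicate 5 the lowest of its group for 22. Each OGD library had a median below 0, and the normoxia libraries ranged from -0.16 to 0.16. The log2 fold changes in WT had a Spearman correlation of 0.13 with mean level, 0.2 with transcript length and 0.28 with genomic span over the 43 genes, which are not independent of each other and share all libraries.

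Levels were compared between genes as CPM per kilobase of the longest coding transcript. In WT normoxia Snap25 was highest, with a median of 157 (131 to 183 over 5 libraries), followed by Syt1 at 114 (101 to 124) and Syt4 at 102 (65.9 to 139). Vamp1 at 1.76 (1.42 to 1.97), Doc2a at 1.91 (1.87 to 2.02) and Sv2c at 3.1 (2.27 to 3.52) were lowest. Of 42 neighbouring pairs in this order, 39 had overlapping ranges; the steps from Snap25 to Syt1, from Amph to Napb and from Sv2c to Doc2a did not. Above the median of all genes in level per length were 38 of 43. Under OGD Syt1 went from the second to the 6th place, at 46.5 (34.2 to 86.4), and Rims2 from the 31st to the 16th.

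**Figure D4:**
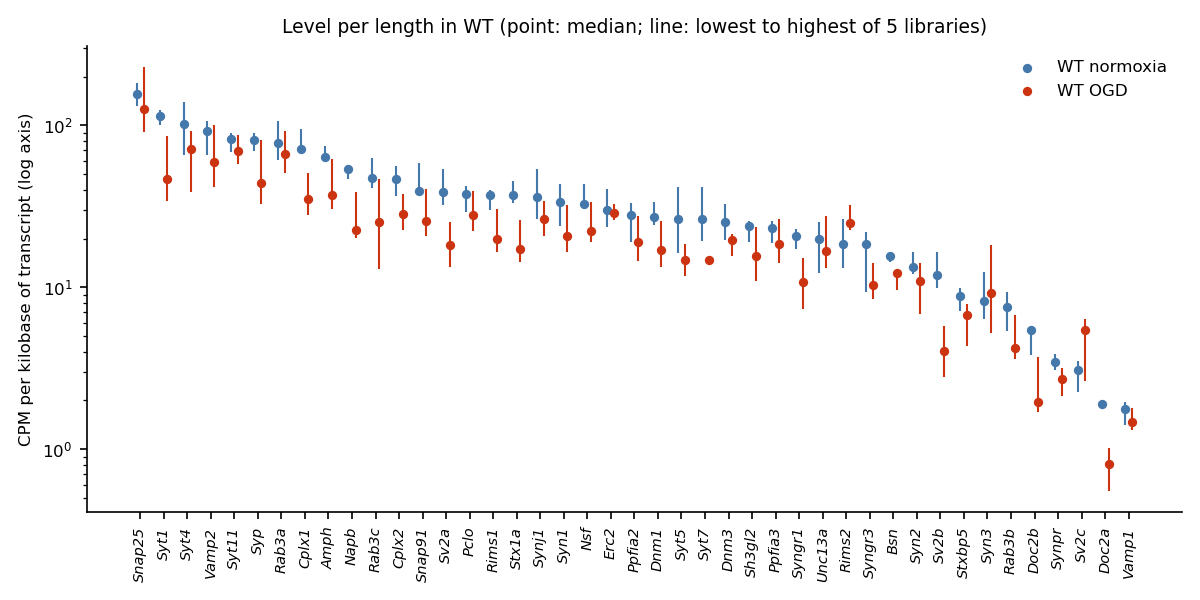
Level of the 43 genes in WT, in CPM per kilobase of the longest coding transcript (vertical axis, log scale), in order of the normoxia median; points are medians and lines run from the lowest to the highest of 5 libraries. Snap25 leads at a median of 157 in normoxia, Sv2c and Rims2 are higher under OGD, and most other OGD medians lie under the normoxia ones.

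The knockout was compared with WT to ask whether loss of ciRS-7 changes these genes or their response. In normoxia 0 of 43 members were called by limma, 0 had an unadjusted p under 0.05, and 0.0353% of all genes were called. Over all genes, 256 of 14152 had an unadjusted p under 0.05, so a count of 0 among 43 does not set the members apart. Log2 fold changes (KO minus WT) ranged from -0.16 to 0.2, with a median of 0.02. Under OGD 0 members were called and 0 had an unadjusted p under 0.05, with 0.0282% of all genes called. Of all genes, 253 of 14185 had an unadjusted p under 0.05 there. With the batch label in the fit 0 members were called in normoxia and 0 under OGD, and 0.0283% and 0.0141% of all genes. The labels were uneven between genotypes, batch 2 being found only in KO and 3.2 only in WT. Log2 fold changes of the members under OGD ranged from -0.28 to 0.2, with a median of -0.07. That median was 0.03 without WT OGD replicate 4, -0.01 without KO OGD replicate 5 and -0.14 without replicate 2 of either group. With library weights, whose estimate did not converge, limma called 2 members higher and 3 lower under OGD, where it called 33.5% of all genes. The 95% intervals of single members reached from -0.48 (Syt5) to 0.55 (Syn3) in normoxia and from -0.97 (Rab3c) to 0.69 (Syn3) under OGD. Sv2b, for example, differed by 0.11 (-0.23 to 0.45) in normoxia and by 0.2 (-0.17 to 0.58) under OGD, and Syt1 by 0.06 (-0.18 to 0.31) and -0.21 (-0.8 to 0.38).

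**Figure D5:**
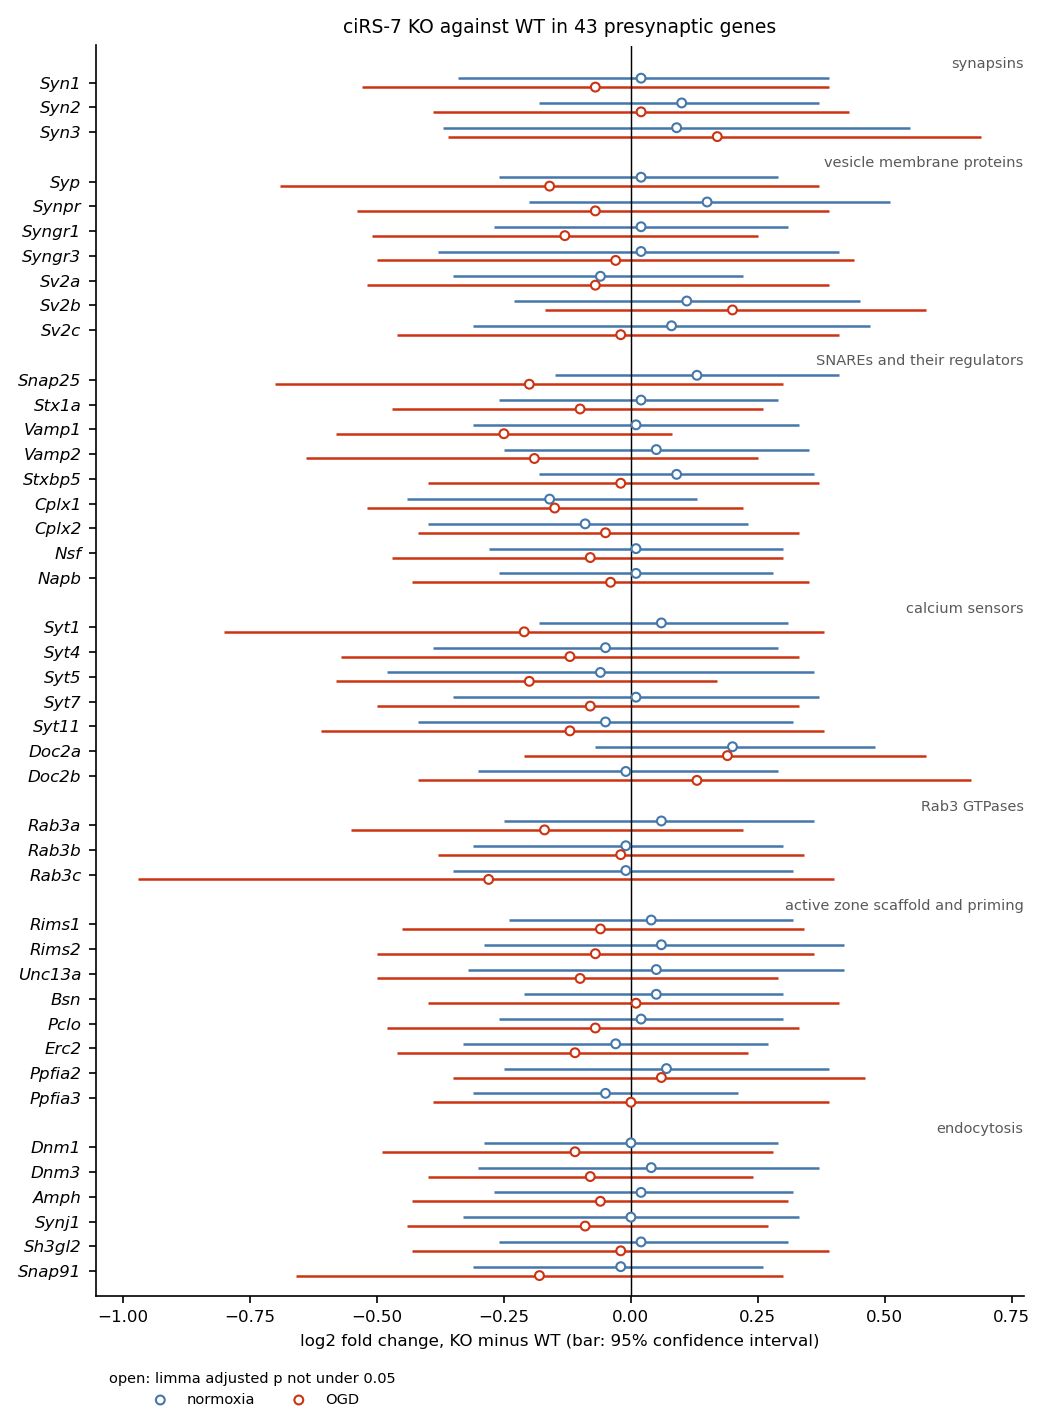
Log2 fold change of each of the 43 genes by knockout (horizontal axis, KO minus WT) in normoxia (blue) and under OGD (red); points are estimates, all open because none passed a limma adjusted p of 0.05, and bars are 95% confidence intervals. Estimates stay between -0.28 and 0.2.

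Whether OGD acted differently in KO was tested as an interaction over the 20 libraries. Of the 43 members 0 were called, 0 had an unadjusted p under 0.05, and 0.0% of all genes were called. Over all genes, 99 of 13688 had an unadjusted p under 0.05. The difference of log2 fold changes (KO minus WT) ranged from -0.34 for Snap25 to 0.13 for Doc2b, with a median of -0.1 against -0.01 over all genes, and was negative for 37 of 43. The median was -0.02 without KO replicate 5, -0.05 without WT replicate 4, -0.15 without WT replicate 5 and -0.17 without KO replicate 2. Single intervals reached from -1.14 (Rab3c) to 0.85 (Doc2b), so differences within these limits are not excluded for those genes. Called in both genotypes were 30 members lower and Sv2c higher, in KO only Syn2, Snap25, Vamp1, Rab3a and Pclo, and in WT only Rims2. For these 6 the difference itself was not called.

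A further 58 presynaptic genes outside the 43 were listed for comparison, and 57 were measured under OGD. In WT 26 fell and 4 rose, with a median of -0.33, and in KO 25 fell and 4 rose, with a median of -0.37. Of all genes 22.8% were called lower and 21.6% higher in WT, and 19.9% and 21.0% in KO. Among the largest falls in WT were those of Slc17a7, for the vesicular glutamate transporter VGLUT1, by 1.69 (limma adjusted p 7.25e-07), Rab3d by 1.66, Rab27b by 1.27 and Rims4 by 1.14. Their falls in KO were 1.62, 1.3, 1.17 and 1.15. The 4 rises in WT were those of the liprin gene Ppfia1 by 0.73 (limma adjusted p 0.000781), Synj2 by 0.65, Picalm by 0.54 and Sypl by 0.4, and in KO these were 0.68, 0.49, 0.44 and 0.43. With the batch label in the fit the counts were 23 lower and 4 higher in WT and 22 lower and 1 higher in KO. That fit called 21.2% of all genes lower and 20.1% higher in WT, and 16.1% and 17.3% in KO. With 1 library left out, Synj2 and Sypl lost the call in WT in at least 1 such fit, and Synj2, Picalm and Sypl in KO.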

How the data were processed

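The authors deposited 4 tables, 1 per comparison, of log2 CPM for 10 libraries each and 14152 to 14375 genes; reads were placed on mm10, per the submitters' processing notes. The aligner, the counting and its strand setting, the annotation and the scaling are not given in the sources used here; the kit was strand-specific, per the labels' protocols. In each gene and group the extreme values lay where clipping at the 10th and 90th percentile puts them (0.6 of the extreme plus 0.4 of its neighbour). No label states this; it was inferred from the values and undone, after which at least 99.91% of values were whole counts within 0.05 (45.5% to 92.8% as deposited, genes of up to 500 counts), and counts of a library in 2 tables were the same for at least 99.97% of genes.

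Each comparison was fitted in its own table with limma 3.58.1 in R 4.3.3 (lmFit, eBayes with trend, no block), with Benjamini-Hochberg adjustment over all genes, two-sided, called under 0.05. The interaction used a joint log2 scale (13688 genes, prior count 2) and treated the culture as a random block (duplicateCorrelation). The estimated correlation within cultures was negative, at -0.19. Without the block 0 members and 0.0% of all genes were called. Other steps used Python 3.11.15. The code was tested on simulated data. The members and gene lists were chosen with earlier results of these data known. Genes given by library were, per role, the largest called rise and fall in WT, the smallest change and any member called between genotypes, with Sv2a, Syp, Snap25 and Syt1 added after their values were seen; of the other presynaptic genes, the 5 largest called rises and falls with a mean of at least 1 log2 CPM, of which 1 is not reported here. Same-numbered libraries share a culture label and batch, so the numbers pair them, yet their deviations correlated from -0.64 to 0.06 in WT and from -0.79 to -0.06 in KO. Coordinates are from GENCODE and promoters from RefSeq (GRCm38.p6), which held 33 of 43 members. Of the members, 18 overlap an exon of a gene on the opposite strand, and 1, Bsn, overlaps an exon of Gm47303 on its own strand. Alternatives were other scalings, prior counts, filters, voom, library weights, batch terms, the replicate block and leaving libraries out; scaling to library totals and leaving out replicate 3, or 1 and 3, were chosen after seeing the data.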

Additional observations from a re-analysis of the deposited data

Results flagged for a closer look

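The values here are single libraries that stood far from the other 4 of their group, with a gap of over 0.71 of the group's range, on the joint log2 CPM scale. Of 172 groups of 5 examined (43 genes in 4 groups), 22 showed one; chance alone yields about 1 in 20 groups, here 8.6, if the 5 libraries are independent. Deviations cancel in part within batch labels and replicates 1 and 3 are seldom extreme, so that number does not hold as it stands. None was a replicate 1 or 3.

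KO OGD replicate 5 held Syp at 5.84 (others 6.89 to 7.27), Syt1 at 6.53 (others 7.74 to 8.21), Syt5 at 3.84 (others 4.56 to 4.75), Rab3c at 6.08 (others 7.66 to 7.87) and Synj1 at 7.03 (others 7.5 to 7.67). KO normoxia replicate 4 held Sv2a at 7.21 (others 7.39 to 7.43), Sv2b at 5.67 (others 6.24 to 6.37) and Sh3gl2 at 5.84 (others 6.26 to 6.43). WT OGD replicate 5 held Sv2c at 4.59 (others 5.64 to 5.85) and Doc2b at 4.02 (others 2.88 to 3.2). WT normoxia replicate 4 held Cplx1 at 7.69 (others 7.23 to 7.34) and Snap91 at 8.0 (others 7.38 to 7.54). KO normoxia replicate 2 held Cplx1 at 7.56 (others 7.05 to 7.19), Doc2a at 2.36 (others 2.52 to 2.56) and Rims1 at 8.18 (others 7.76 to 7.83). WT OGD replicate 4 held Nsf at 6.99 (others 6.16 to 6.4), Napb at 7.42 (others 6.48 to 6.65) and Rab3b at 4.49 (others 3.59 to 3.85). KO normoxia replicate 5 held Nsf at 6.65 (others 7.06 to 7.19) and Snap91 at 7.36 (others 7.54 to 7.58). KO OGD replicate 2 held Rab3b at 4.14 (others 3.72 to 3.82). KO OGD replicate 4 held Rims1 at 6.5 (others 7.06 to 7.26).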

How the results depend on the processing

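Every called member kept its sign in all alternatives run, while 12 of 32 calls in WT and 13 of 36 in KO held in each of them, and 25 and 28 in each fit that left out 1 library. Members called lower in WT, 30, numbered 24 to 34 with 1 library left out, and those in KO, 35, numbered 27 to 34. The calls over all genes moved in the same fits. In WT 2698 to 3405 of 14235 genes were called lower, against 3244 with all libraries. In KO the numbers were 2373 to 2880 of 14375, against 2863. The fewest members called lower were 12 in WT and 13 in KO, with replicates 1 and 3 left out of both groups. In KO this was the same fit as the batch 3 cultures alone. The parts of library number and of batch labels in these counts were not tested. Members called higher in WT, 2, were 1 in the batch 3 cultures, 1 scaled to library totals, 1 without replicate 3 of both groups, 0 without replicates 1 and 3, and 1 to 2 with 1 library left out. In KO the 1 member called higher became 2 with the deposited values as they are, 2 with library weights, 0 scaled to library totals, 0 without replicate 3, 0 without replicates 1 and 3 (the batch 3 cultures), and 1 to 2 with 1 library left out. Scaling to library totals moved the median of all genes to -0.30 in WT and -0.28 in KO, with 22.1% and 21.9% of called genes higher, against 48.6% and 51.3%. That scaling gave 38 members lower in WT and 39 in KO, where 40.4% and 36.8% of all genes were called lower. With the replicate block 29 members were lower and 2 higher in WT, and 30 lower and 1 higher in KO; the block changed no member call other than those named beside the results. Between genotypes under OGD, library weights called 2 members higher and 3 lower where 0 were called, and 33.5% of all genes, and Napb was at 0.15 with them (limma adjusted p 0.0282), reversed in sign; the cause was not tested. The estimate of these weights stopped before it converged, so their values are given for completeness. Of the other presynaptic genes, library weights called 13 higher in WT and 8 in KO, and leaving out replicates 1 and 3 called 0 in both. Over all genes, library weights called 41.8% higher in WT and 37.6% in KO. Leaving out replicates 1 and 3 called 8.01% and 8.28% of all genes higher.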
